A study of Homo sapiens with 5 samples.

Results

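Wnt ligands, their receptors and the proteins that pass the signal to beta-catenin were followed in RH4 cells after depletion of circVAMP3, a circular RNA. The set holds 58 genes, of which 52 had a row among the 13822 genes measured and 6 did not (ROR2, FZD9, DKK1, RNF43, NKD2 and PRICKLE1, not analysed here). The genes were chosen by their place in the Wnt pathway, but the set was drawn up with the results of this same comparison known, and it carries the name of RYK because the RYK mRNA level was so much lower in the depleted cells. A gene also had to be present in a table from which low read counts had been removed. The values of RYK are therefore a description without a test, and the counts of members below describe the set and support nothing about it.

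RH4 is an established line of alveolar rhabdomyosarcoma, a childhood tumour with features of immature skeletal muscle. Cells received 30 nM of siRNA, had their medium changed after 24 h and were harvested 24 h after that change. Poly-A RNA was sequenced from 3 libraries of cells given si-SCR, a scrambled control siRNA. A further 2 libraries came from cells given si-circVAMP3, which targets the circular RNA. Both groups share the line and differ in the siRNA. The methods of the study name Dharmafect-1 and Lipofectamine RNAiMAX as reagents and do not say which was used for these libraries. The replicates of both groups are described as biological in the methods of the study. The p-values set the difference between the groups against the spread of these 5 libraries within their groups. That spread is estimated with help from all genes tested. Levels are given as FPKM, fragments per kilobase of gene length and scaled to the reads of the library, which allows genes to be compared with each other. The reads behind the table came to 26454577, 25059718 and 24947689 in the si-SCR libraries and to 18635933 and 28834927 in the si-circVAMP3 libraries. In bulk RNA, fewer cells of a type and less RNA per cell cannot be told apart.

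In the canonical branch of the pathway, a lipid-modified Wnt protein brings a Frizzled receptor and the co-receptor LRP5 or LRP6 together, Dishevelled is recruited, and the complex that marks beta-catenin for destruction is held back. Beta-catenin then enters the nucleus and joins factors of the TCF/LEF family at their target genes. Other branches use Frizzled with RYK, ROR or PTK7 receptors and steer cell movement and planar cell polarity without beta-catenin. RYK binds Wnt through its extracellular domain, and its kinase domain is regarded as inactive. Both branches have been studied in rhabdomyosarcoma as influences on muscle differentiation.

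The identity of the cells was checked against marker genes. Of 17 markers of alveolar rhabdomyosarcoma, 15 had a row, and their summed level was 1117, 1103 and 961 FPKM in the si-SCR libraries and 899 and 912 FPKM in the si-circVAMP3 libraries. DES, a muscle intermediate filament gene, was the most abundant of them, with 291, 291 and 249 FPKM under si-SCR and 266 and 248 FPKM under si-circVAMP3. MYOG, a myogenic transcription factor, was lower after depletion (175, 179 and 149 FPKM against 101 and 96.6 FPKM), as were CHRNG and MYL4. These 3 of the 15 markers were called lower by the test described below, beside 4.14% of all genes tested. The median log2 fold change of the 15 was -0.263. MYOD1, also a myogenic transcription factor, overlapped between the groups, at 115, 105 and 84.3 FPKM against 106 and 127 FPKM. MYF5 and MYF6 had no row. Fibroblast markers had 4 of 6 rows, led by COL3A1, and summed to 35.5, 32.8 and 33.3 FPKM against 31.1 and 28.6 FPKM. Of 5 epithelial markers only KRT8 had a row and was called higher, at 0.316, 0.215 and 0.256 FPKM against 0.651 and 0.58 FPKM, and of 4 endothelial markers only PECAM1 did, at 0.153 FPKM or less in every library. None of the 5 leukocyte or 4 neural markers had a row. The part of the lower markers MYOG, CHRNG and MYL4 in the values of the Wnt genes was not tested.

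The siRNA is shown because its bases are compared with the Wnt mRNAs further on. The strand listed for si-circVAMP3 runs across the join between exon 4 and exon 3 of VAMP3 (8 bases before the join and 11 after it), and these 19 bases are not found in the linear VAMP3 transcript. The exons that form the circle lie at chr1:7777160-7778169 on the plus strand of GRCh38, and the circle counts 211 bases. Capitals mark, on the listed strand, the 7 bases that pair with bases 2 to 8 of the opposite, guide strand, and on the guide strand those bases themselves.
si-circVAMP3, listed strand: caucaucggugGUGGACAuuu
si-circVAMP3, guide strand without overhang: aUGUCCACcaccgaugaug

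The circular RNA has no poly-A tail and no row of its own, so its depletion could not be read from these libraries. The linear VAMP3 mRNA, which encodes a vesicle fusion protein, stood at 36.4, 35.4 and 37.4 FPKM under si-SCR and at 29.4 and 30.2 FPKM under si-circVAMP3. Both depleted libraries lay under the controls, by -0.29 on the log2 scale (95% interval -0.39 to -0.19, adjusted p = 0.00504 by limma), which is short of the fold limit used here. Without si-circVAMP3 replicate 1 adjusted p was 0.0525, the highest of all alternatives.

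Genes were compared with limma on log2(FPKM + 0.1) over 13721 genes, and a gene was called when its adjusted p was under 0.05 and its log2 fold change at least 0.58 in size. The 52 members all passed the filter on low values (FPKM of at least 0.1 in at least 2 libraries). Of these, 16 had a mean of 10 FPKM or more, 31 lay between 1 and 10 FPKM and 5 under 1 FPKM. By this rule 568 genes were lower (4.14% of those tested) and 227 higher (1.65%) after circVAMP3 depletion. Among the 52 members, 4 were called lower (RYK, WNT5B, SFRP1 and LRP5) and 3 higher (WNT11, BCL9L and FZD6), or 7.69% and 5.77%. RYK stands in this and the next counts as a description only, since its values chose the name of the set, and of the other 51 members 3 were called lower (5.88%), 7 were lower by adjusted p alone (13.7%) and 12 had both depleted libraries under all controls. By adjusted p alone, with no fold limit, 14.6% of all genes were lower and 12.8% higher, beside 8 members lower (15.4%) and 11 higher (21.2%). Without si-circVAMP3 replicate 1 these counts were 6 members lower and 2 higher (6% and 3.32% of all genes), without si-circVAMP3 replicate 2 again 6 and 2 (5.86% and 3.39%), and without si-SCR replicate 2 they were 6 and 7 (8.9% and 6.8%). The median log2 fold change was 0.038 over the members and 0.003 over all genes tested. Both si-circVAMP3 libraries lay under all 3 si-SCR libraries for 13 members and above them for 14, where 28.6% and 28% of all genes tested did so. With a pseudocount of 1 in place of 0.1, which shrinks the fold changes of low genes, limma called 0 members higher (WNT11 at 0.50, FZD6 and BCL9L at 0.45 on the log2 scale), while 11 were higher both at an unadjusted p under 0.05 and by adjusted p with no fold limit.

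**Figure D1:**
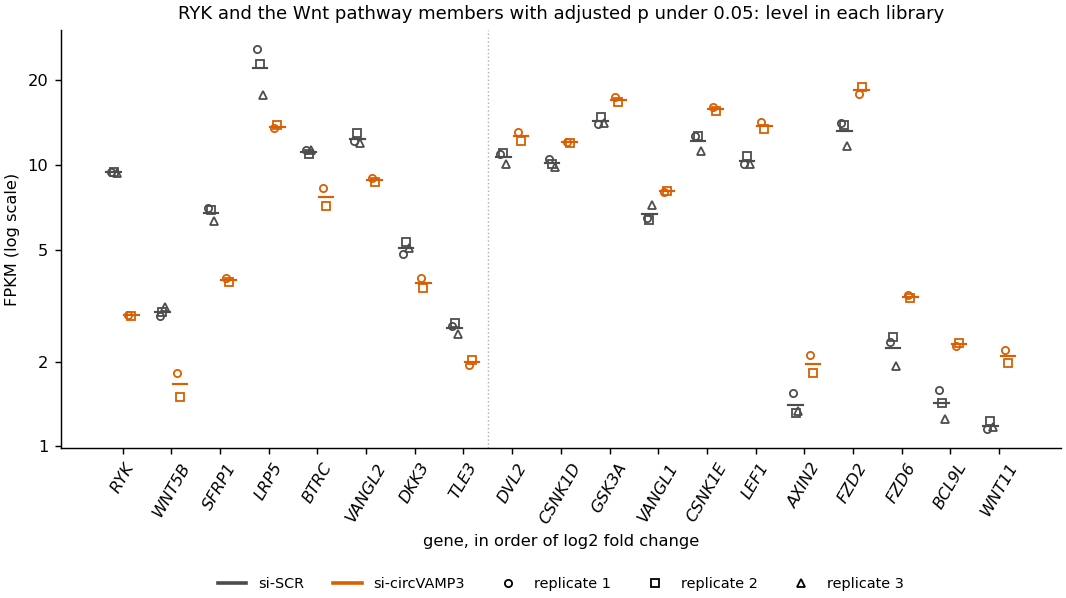
Level (FPKM, log axis) in each library of RYK, shown as a description, and of the 18 other members with adjusted p under 0.05, in order of log2 fold change. Symbols are libraries, grey for si-SCR and orange for si-circVAMP3, and short lines are group means. Groups do not overlap for any of the 19 genes, and RYK at 2.92 and 2.91 FPKM against 9.36 to 9.47 FPKM is the widest gap on this axis. Of all genes tested, 28.6% lay apart in this way on the lower side and 28% on the higher side.

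**Figure D2:**
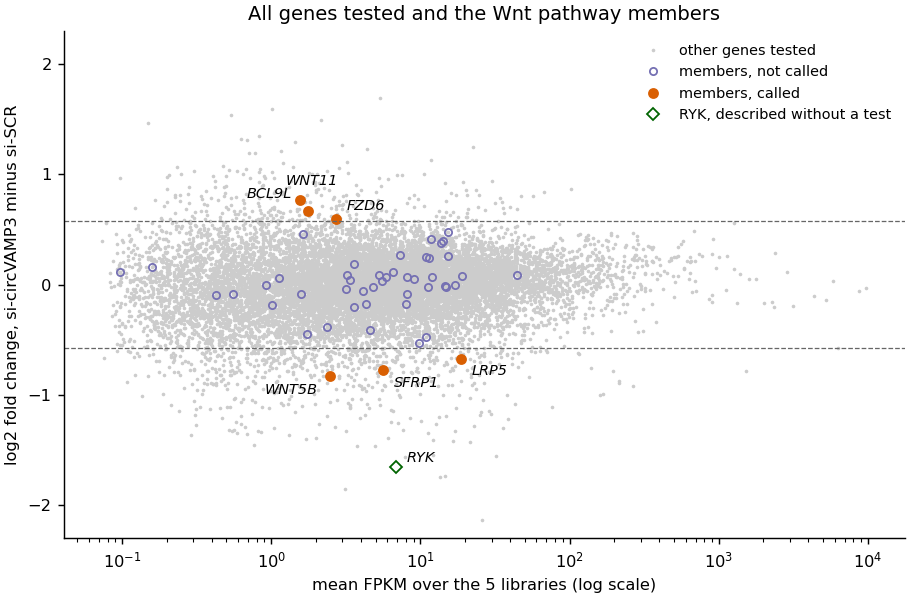
Log2 fold change against mean FPKM (log axis) for the 13721 genes tested, with the members as circles, the 6 called members other than RYK filled and named, and RYK as an open diamond because it is described without a test. Dashed lines mark 0.58 in either direction. RYK had the fifth lowest value of all genes, at -1.66.

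RYK (ENSG00000163785, chr3:134065303-134250859, minus strand) was measured at 9.47, 9.43 and 9.36 FPKM in the si-SCR libraries and at 2.92 and 2.91 FPKM in the si-circVAMP3 libraries. The depleted libraries held 31.0% of the control mean, and the libraries of each group were nearly alike. These levels rest on 2032, 1896 and 1879 reads under si-SCR and on 436 and 675 reads under si-circVAMP3. The log2 fold change was -1.66, and over 14 other ways of processing the values or leaving out a library it ranged from -1.69 to -1.41. Its rank from the lowest was 5 among all genes tested. In the canonical RYK transcript, the only one searched, the coding sequence holds 2 copies of the 7 bases that pair with the guide strand. They lie in exons 3 and 14 of 15, and the 3′ UTR of this transcript holds none. The sites are shown in capitals within 19 bases aligned to the siRNA, read from GRCh38 on the strand of the gene. The first lies at chr3:134211576-134211594 and has 9 of 19 bases in common with the listed strand, and the second lies at chr3:134159312-134159330 and has 10. Both counts include the 7 bases of the match, which are the same at every site.
RYK, exon 3: tgggattccaaGTGGACAa
RYK, exon 14: agactccctacGTGGACAt

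The other receptors of the tyrosine kinase fold did not follow RYK. PTK7, which acts in planar cell polarity, was the most abundant of this group, with 19.2, 19.1 and 17.7 FPKM under si-SCR and 19.9 and 19.4 FPKM under si-circVAMP3. Its log2 fold change of 0.08 did not pass the test (95% interval -0.05 to 0.20, adjusted p = 0.337), and 2 coding copies of the same 7 bases lie in PTK7 as well. ROR1, a WNT5A receptor, was low throughout, from 0.399 to 0.469 FPKM.

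Of the 4 Wnt ligands measured in the set, 1 was called lower and 1 higher, beside 4.14% and 1.65% of all genes tested. The count was 2 lower without si-circVAMP3 replicate 2, and with a pseudocount of 1 the ligand called higher, WNT11, was under the fold limit. WNT5B (chr12:1529891-1647212), a ligand mostly linked to the branch without beta-catenin, was found at 2.90, 2.99 and 3.14 FPKM under si-SCR and at 1.82 and 1.50 FPKM under si-circVAMP3. Both depleted libraries lay well under the controls, at 55.1% of their mean. The log2 fold change was -0.83 (95% interval -1.08 to -0.58, adjusted p = 0.00278). WNT11 (chr11:76186325-76210736), known for convergence and extension movements, went the other way. It was measured at 1.15, 1.23 and 1.17 FPKM under si-SCR and at 2.21 and 1.98 FPKM under si-circVAMP3, with a log2 fold change of 0.77 (95% interval 0.53 to 1.01, adjusted p = 0.00301). These are low levels, resting on 69 to 135 reads a library. WNT5A, the closest relative of WNT5B, was at 1.88, 2.07 and 1.90 FPKM against 1.17 and 1.68 FPKM. The depleted libraries lay far from each other, and the difference did not pass the test (log2 fold change -0.44, adjusted p = 0.0694). Without si-circVAMP3 replicate 2, the library nearer to the controls, WNT5A was called lower with a log2 fold change of -0.68 (adjusted p = 0.0362, in a range of 0.0362 to 0.336 over all alternatives), and limma-voom on rebuilt reads put it past adjusted p alone (0.0453). WNT10B, a ligand of the canonical branch, was the most abundant of the 4, at 3.18 to 3.45 FPKM under si-SCR and 3.26 and 3.56 FPKM under si-circVAMP3, and the groups overlapped. The summed level of the 4 ligands was 9.38, 9.48 and 9.52 FPKM under si-SCR and 8.46 and 8.72 FPKM under si-circVAMP3.

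The machinery that makes Wnt proteins ready for release showed no call. WLS, which carries lipid-modified Wnt to the surface, was at 12.0, 12.4 and 10.9 FPKM against 12.5 and 12.2 FPKM. PORCN, the enzyme that attaches the lipid, was at 1.72, 1.51 and 1.65 FPKM against 1.76 and 1.33 FPKM. Groups overlapped for both genes.

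Frizzled receptors were led by FZD2 and FZD8, with 8 of 9 genes measured. Of the 8, 1 was called higher, beside 1.65% of all genes tested. By adjusted p alone 2 were higher, beside 12.8%. FZD2 stood at 14.2, 13.9 and 11.7 FPKM under si-SCR and at 17.9 and 19.0 FPKM under si-circVAMP3. Both depleted libraries were higher than each control, and adjusted p was 0.00999, but the log2 fold change of 0.48 stayed under the fold limit. Without either si-circVAMP3 replicate FZD2 missed adjusted p (0.0560 and 0.0803, the highest of all alternatives). FZD6 (chr8:103298433-103332866), a Frizzled tied to planar cell polarity, was measured at 2.34, 2.44 and 1.92 FPKM against 3.44 and 3.37 FPKM. Its log2 fold change of 0.59 (95% interval 0.32 to 0.86, adjusted p = 0.0117) was just past the limit. The FZD6 call was lost without si-SCR replicate 3, where the log2 fold change was 0.49, and without either si-circVAMP3 replicate (adjusted p = 0.0815 and 0.0740, in a range of 0.00418 to 0.0815 over all alternatives). The other 6 receptors (FZD1, FZD3, FZD4, FZD5, FZD7 and FZD8) did not pass the test, with log2 fold changes from -0.19 to 0.18. Summed over the 8 genes, Frizzled mRNA came to 35.8, 33.5 and 30.3 FPKM under si-SCR and to 39.3 and 41.5 FPKM under si-circVAMP3. FZD2 made up 39.5%, 41.6% and 38.5% of that sum in the controls and 45.7% in each depleted library.

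**Figure D3:**
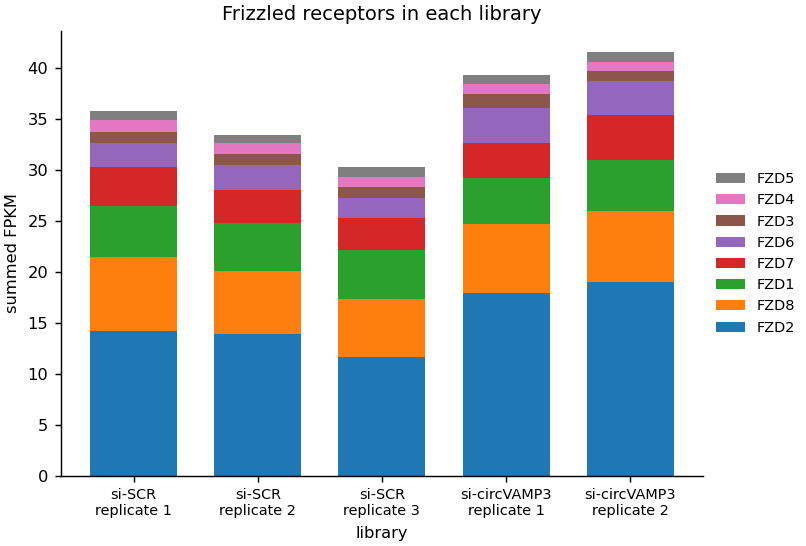
Summed FPKM of the 8 measured Frizzled receptors in each library, stacked by gene. The si-circVAMP3 bars reach 39.3 and 41.5 FPKM and the si-SCR bars 30.3 to 35.8 FPKM, and the FZD2 segment at the base is the tallest in every bar.

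Both LRP co-receptors had both depleted libraries under every control, as did 28.6% of all genes tested. LRP5 was called lower, as were 4.14% of all genes tested. LRP5 (chr11:68312591-68449275) was found at 25.8, 22.8 and 17.8 FPKM under si-SCR and at 13.5 and 13.9 FPKM under si-circVAMP3. The groups did not overlap, although the controls were far apart and replicate 3 was the lowest of them. The log2 fold change was -0.67 (95% interval -1.01 to -0.34, adjusted p = 0.0152). The LRP5 call was lost without si-SCR replicate 1, where the log2 fold change was -0.55, without si-SCR replicate 2 (adjusted p = 0.0556) and without either si-circVAMP3 replicate (adjusted p = 0.0957 and 0.0835), in a range of 0.00082 to 0.0957 over all alternatives. LRP6, which shares its role with LRP5, was at 8.41, 8.39 and 8.56 FPKM against 7.69 and 7.29 FPKM, and its log2 fold change of -0.17 missed the threshold (adjusted p = 0.0578). LRP6 passed adjusted p with a filter of FPKM of at least 1 (0.0491) and with limma-voom on rebuilt reads (0.0262), in a range of 0.0262 to 0.281 over all alternatives.

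The members differed in how much they varied among the controls. The coefficient of variation over the si-SCR libraries had a median of 5.51% over the members and 6.26% over all genes tested, and it was highest for NKD1 (34.3%), DVL1 (28.9%), APC2 (21.1%) and LRP5 (18.3%). For 24 of the 52 members the lowest control was si-SCR replicate 3, and this library stood somewhat apart. Over 11955 genes with a coding reference transcript, the log2 level in that library minus the mean of the other two si-SCR libraries was related to the GC content of the transcript (Pearson r = -0.512, across genes, which are not independent replicates). The median of that difference was -0.26 for the 1869 genes with a GC content of at least 60% and 0.030 for the rest. LRP5 has a GC content of 62.9%, BCL9L 63.7% and DVL1 67.5%, while RYK has 45.3%, SFRP1 49.9% and FZD6 37.7%. The log2 fold change between the groups had a weaker relation with GC content (Pearson r = 0.147). Without si-SCR replicate 3, 4 members were called lower and 2 higher. The part of base composition in the single changes was not tested.

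Both measured antagonists that are secreted were lower by adjusted p, as were 14.6% of all genes tested, and SFRP1 passed both limits, as did 4.14%. SFRP1 (chr8:41261962-41309473), a soluble protein with a Frizzled-like domain that binds Wnt outside the cell, was measured at 7.05, 6.91 and 6.34 FPKM under si-SCR and at 3.97 and 3.82 FPKM under si-circVAMP3. The depleted libraries held 57.6% of the control mean. The log2 fold change was -0.78 (95% interval -0.95 to -0.61, adjusted p = 0.000942), and the call held in each of the 14 alternatives that change the fit. DKK3, a divergent member of the Dickkopf family, was at 4.84, 5.33 and 5.06 FPKM against 3.95 and 3.64 FPKM. It passed adjusted p (0.00996) with a log2 fold change of -0.41, under the fold limit, and missed it without si-circVAMP3 replicate 2 (0.0808, the highest of all alternatives). Among genes outside the set, SFRP4, a relative of SFRP1, was called lower too, at 7.72, 6.66 and 7.12 FPKM against 3.91 and 3.54 FPKM (log2 fold change -0.92, adjusted p = 0.000934).

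Genes that set the number of receptors at the surface showed no call. LGR5, a receptor for R-spondins, was the most abundant at 5.03, 5.05 and 6.35 FPKM against 5.92 and 5.27 FPKM. LGR4, a second receptor of this kind, was at 3.73 to 3.82 FPKM under si-SCR and 3.44 and 3.09 FPKM under si-circVAMP3 (adjusted p = 0.0919). ZNRF3, a ubiquitin ligase that removes Frizzled, overlapped between the groups.

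Dishevelled mRNAs were plentiful, and DVL3 was the most abundant of all 52 members. DVL3 stood at 41.8, 46.2 and 42.1 FPKM under si-SCR and at 45.9 and 46.0 FPKM under si-circVAMP3, with overlapping groups. DVL2 was at 10.9, 11.0 and 10.1 FPKM against 13.1 and 12.2 FPKM, and passed adjusted p (0.0322) with a log2 fold change of 0.24, under the fold limit. DVL2 missed adjusted p without si-SCR replicate 1 (0.0519) or 2 (0.0666), without si-circVAMP3 replicate 1 (0.196) or 2 (0.0833), and in a fit with no mean-variance trend (0.0661), in a range of 0.0190 to 0.196 over all alternatives. DVL1 spanned 16.8, 12.0 and 9.49 FPKM among the controls, more than the distance to the depleted libraries at 15.4 and 17.3 FPKM. Without si-SCR replicate 1, DVL1 was called higher with a log2 fold change of 0.61 (adjusted p = 0.0211, in a range of 0.0211 to 0.529 over all alternatives). NKD1, which binds Dishevelled and dampens the signal, was the least abundant member, from 0.0553 to 0.124 FPKM on 24 to 52 reads.

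In the destruction complex, 4 of 10 genes were higher and 1 lower by adjusted p, all under the fold limit, where 12.8% of all genes tested were higher and 14.6% lower. The 4 higher genes each missed adjusted p with either si-circVAMP3 library left out. CSNK1E, a casein kinase that phosphorylates Dishevelled, was at 12.7, 12.7 and 11.2 FPKM under si-SCR and at 16.1 and 15.5 FPKM under si-circVAMP3 (log2 fold change 0.37, adjusted p = 0.00967). Its close relative CSNK1D was at 10.5, 10.1 and 9.88 FPKM against 12.1 and 12.0 FPKM (0.25 on the log2 scale, adjusted p = 0.0150). GSK3A, a kinase that phosphorylates beta-catenin, was the most abundant of the group, at 14.0, 14.9 and 14.1 FPKM against 17.4 and 16.8 FPKM (0.26 on the log2 scale, adjusted p = 0.0131). In each of these 3 kinases, named because they passed adjusted p, both depleted libraries exceeded every control, as they did for 28% of all genes tested. AXIN2, a scaffold that is also a common readout of beta-catenin activity, was at 1.55, 1.32 and 1.33 FPKM against 2.11 and 1.83 FPKM (0.46 on the log2 scale, adjusted p = 0.0283). Without si-circVAMP3 replicate 1 or 2, adjusted p was 0.0787 and 0.0591 for CSNK1E, 0.0970 and 0.0917 for CSNK1D, 0.103 and 0.0636 for GSK3A, and 0.178 and 0.0740 for AXIN2. Without si-SCR replicate 2 it was 0.0603 for CSNK1D and 0.0902 for AXIN2. BTRC, the F-box protein that hands phosphorylated beta-catenin to the ubiquitin system, had the largest difference of the group and was lower. It was measured at 11.3, 10.9 and 11.3 FPKM under si-SCR and at 8.29 and 7.16 FPKM under si-circVAMP3 (log2 fold change -0.53, 95% interval -0.70 to -0.36, adjusted p = 0.00353). Without si-circVAMP3 replicate 1 the BTRC fold change was -0.64, and it was then called lower (adjusted p = 0.0118, in a range of 0.000425 to 0.0261 over all alternatives). The other 5 genes (APC, APC2, AXIN1, GSK3B and CSNK1A1) overlapped between the groups.

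Beta-catenin itself, CTNNB1 (chr3:41194741-41260096), lies outside the set and was lower, at 51.4, 52.7 and 53.7 FPKM under si-SCR against 35.4 and 33.2 FPKM under si-circVAMP3 (log2 fold change -0.62, 95% interval -0.73 to -0.51, adjusted p = 0.000464). Without si-circVAMP3 replicate 2 its log2 fold change was -0.57, under the fold limit.

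Of the 10 nuclear partners of beta-catenin, 1 was called higher, beside 1.65% of all genes tested, and by adjusted p alone 2 were higher and 1 lower, beside 12.8% and 14.6%. BCL9L (chr11:118893875-118925926), an adaptor that links beta-catenin to Pygopus, was found at 1.59, 1.43 and 1.24 FPKM under si-SCR and at 2.27 and 2.33 FPKM under si-circVAMP3. Both depleted libraries were higher than every control, with a log2 fold change of 0.67 (95% interval 0.39 to 0.95, adjusted p = 0.00854). The BCL9L call was lost without either si-circVAMP3 replicate (adjusted p = 0.0592 and 0.0690, in a range of 0.000922 to 0.0690 over all alternatives). Its relative BCL9 was at 7.62 to 8.13 FPKM against 8.56 and 8.15 FPKM and did not pass the test. LEF1, a DNA-binding partner, was at 10.1, 10.8 and 10.1 FPKM against 14.2 and 13.4 FPKM, past adjusted p (0.00359, and up to 0.0419 over all alternatives) with a log2 fold change of 0.42, under the fold limit. TLE3, a corepressor of the Groucho family, was lower by adjusted p (0.0170) at 2.68, 2.73 and 2.50 FPKM against 1.95 and 2.02 FPKM, but not without si-SCR replicate 2 (0.0684) or without si-circVAMP3 replicate 1 (0.107, the highest of all alternatives) or 2 (0.0813). The most abundant gene of this group was PYGO2, a Pygopus protein that reads histone marks, at 16.7, 17.8 and 16.7 FPKM against 16.8 and 17.1 FPKM, with overlapping groups. The remaining partners (TCF7, TCF7L1, TCF7L2, TLE1 and CTNNBIP1) had log2 fold changes from -0.18 to 0.05 and did not pass the test.

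The 2 Vang-like genes of planar cell polarity differed in opposite directions. VANGL2, a membrane protein that sets cell orientation and is known to bind RYK, was the most abundant of this group, at 12.1, 13.0 and 12.0 FPKM under si-SCR and at 8.99 and 8.70 FPKM under si-circVAMP3. VANGL1 was at 6.47, 6.40 and 7.22 FPKM against 8.05 and 8.08 FPKM. Neither gene overlapped between the groups. Of all genes tested, 28.6% lay apart in this way on the lower side and 28% on the higher side. Both Vang-like genes passed adjusted p (0.00227 and 0.0331) with log2 fold changes of -0.48 and 0.27, under the fold limit. By adjusted p alone, 14.6% of all genes tested were lower and 12.8% higher. VANGL2 passed adjusted p in every alternative, while VANGL1 missed it without si-SCR replicate 1 (0.0768) or 2 (0.105), without si-circVAMP3 replicate 1 (0.147) or 2 (0.151), and in a fit with no mean-variance trend (0.0573), in a range of 0.00867 to 0.151. CELSR2, an atypical cadherin, overlapped between the groups, and DAAM1, a formin downstream of Dishevelled, did not pass the test (adjusted p = 0.420).

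**Figure D4:**
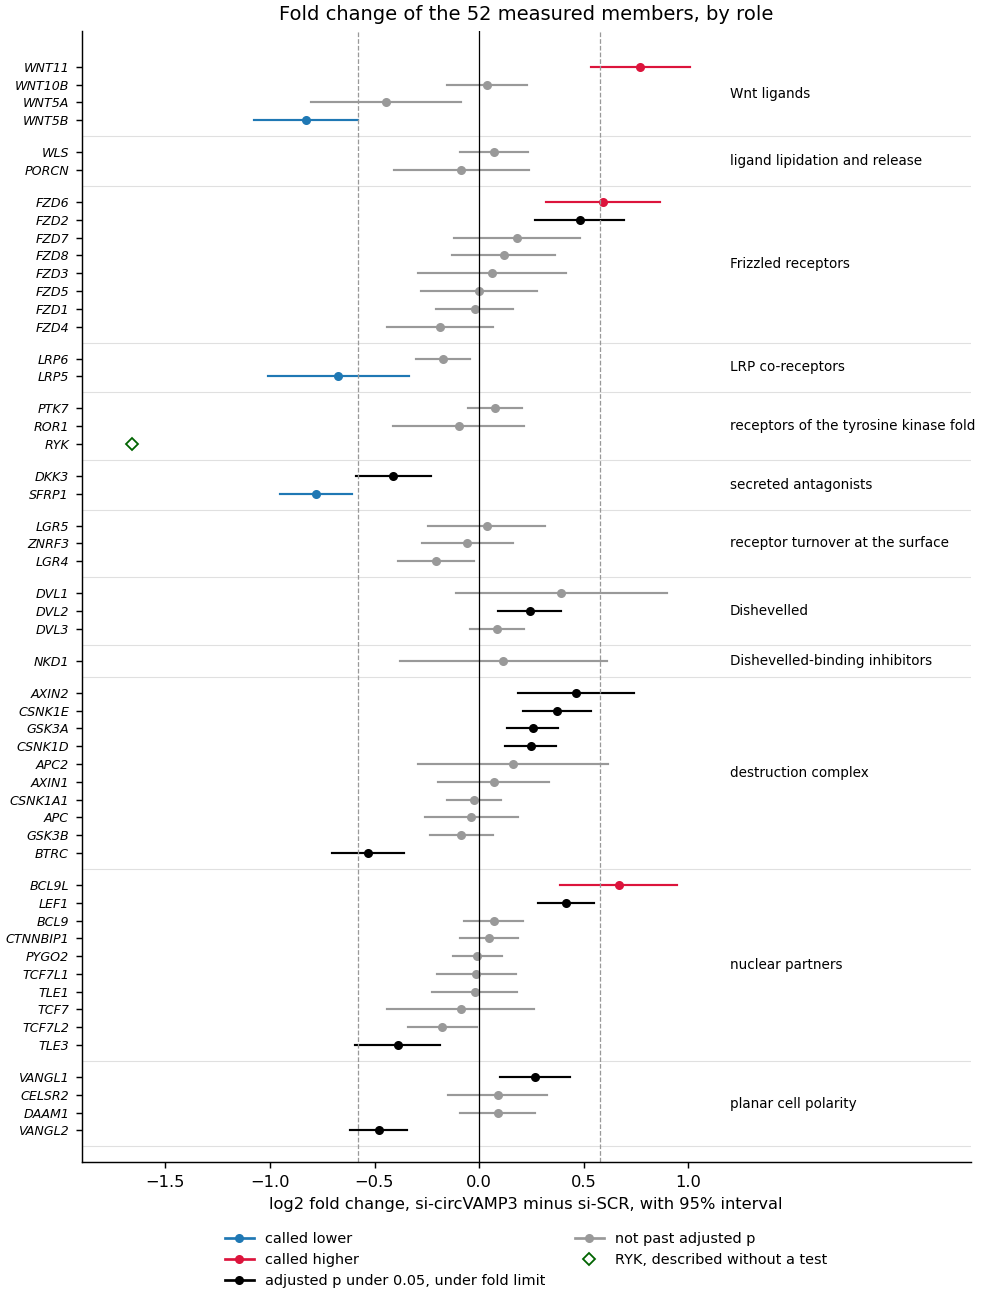
Log2 fold change (si-circVAMP3 minus si-SCR) of the 52 measured members with its 95% interval, grouped by role. Blue genes were called lower and red genes higher, black genes passed adjusted p alone, and RYK is an open diamond with no interval because it is described without a test. Dashed lines mark 0.58 in either direction.

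Other genes of the pathway were taken from a list of 84, of which 57 could be tested. Of these, 4 were called lower (CTBP2, MAP3K7, CTNNB1 and SFRP4) and 1 higher (RSPO2), or 7.02% and 1.75% beside 4.14% and 1.65% of all genes tested, and the median log2 fold change was -0.0078. By adjusted p alone 5 were lower and 7 higher, or 8.77% and 12.3% beside 14.6% and 12.8% of all genes tested. The count on the higher side was 3 without si-SCR replicate 2, or 5.26% beside 6.8% of all genes tested. It was smaller still without either si-circVAMP3 replicate, as was the share over all genes. CTBP2, a corepressor that can act at TCF sites, was at 10.1, 10.1 and 10.2 FPKM under si-SCR and at 4.16 and 3.81 FPKM under si-circVAMP3 (log2 fold change -1.32, adjusted p = 0.000112). MAP3K7, a kinase upstream of NLK in one branch of the pathway, was at 38.6, 41.4 and 40.7 FPKM against 24.5 and 24.3 FPKM (log2 fold change -0.72, adjusted p = 0.000286). RSPO2, a ligand of the LGR receptors, was at 2.49, 2.57 and 3.29 FPKM against 4.45 and 4.75 FPKM (log2 fold change 0.72, adjusted p = 0.00863). The RSPO2 call was lost without either si-circVAMP3 replicate (adjusted p = 0.0548 and 0.0726, in a range of 0.00132 to 0.0726 over all alternatives) and with a pseudocount of 1, where the log2 fold change was 0.57.

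Of 25 genes widely used as readouts of beta-catenin and TCF, 18 were tested, with a median log2 fold change of 0.16. By the rule with the fold limit 1 was called lower and 2 higher, or 5.56% and 11.1% beside 4.14% and 1.65% of all genes tested. By adjusted p alone 1 was lower and 7 higher, or 5.56% and 38.9% beside 14.6% and 12.8%. The count on the higher side was 3 without si-circVAMP3 replicate 1 and 2 without si-circVAMP3 replicate 2, where 3.32% and 3.39% of all genes were higher. AXIN2, LEF1, TCF7, NKD1, ZNRF3 and LGR5 are on this list as well as in the set, and AXIN2 and LEF1 are among the 7 higher. This list, like the other gene lists, was drawn up with earlier results of these data known. Its counts are therefore a description and support nothing about it. TNFRSF19, a receptor of the TNF family, was at 16.2, 16.0 and 15.4 FPKM under si-SCR and at 9.75 and 8.18 FPKM under si-circVAMP3 (log2 fold change -0.82, adjusted p = 0.00114). BAMBI, a decoy receptor of the TGF-beta family, was at 2.47, 2.53 and 2.38 FPKM against 4.06 and 4.38 FPKM (log2 fold change 0.76, adjusted p = 0.00146). TBX3, a T-box repressor, was at 2.89, 2.41 and 2.51 FPKM against 4.02 and 4.34 FPKM (log2 fold change 0.67, adjusted p = 0.00493). The TBX3 call was lost without si-circVAMP3 replicate 2 (adjusted p = 0.0512, the highest of all alternatives) and with a pseudocount of 1, where the log2 fold change was 0.53. MYC and CCND1, which drive growth and are often cited as targets, did not pass the test (adjusted p = 0.290 and 0.138).

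The last list held 14 genes known to bind or process RYK, of which 13 were tested. Of these, 1 was called higher (7.69%, beside 1.65% of all genes tested), and by adjusted p alone 2 were lower and 2 higher, or 15.4% each, near the 14.6% and 12.8% of all genes. EPHB3, an ephrin receptor that forms complexes with RYK, was called higher, at 12.5, 11.7 and 10.3 FPKM against 17.7 and 17.5 FPKM (log2 fold change 0.61, adjusted p = 0.00343). The EPHB3 call was lost without si-SCR replicate 3, where the log2 fold change was 0.54, and with a pseudocount of 1, where it was 0.576. VANGL2, given above, and MIB1, a ubiquitin ligase for RYK, were lower by adjusted p alone, and MIB1 stood at 15.2, 15.1 and 15.5 FPKM against 12.8 and 12.6 FPKM (adjusted p = 0.00773). MIB1 missed adjusted p without either si-circVAMP3 replicate (0.0551 and 0.0666, the highest of all alternatives). Genes of gamma-secretase, which cuts RYK, held 1 gene past adjusted p, APH1A, at 45.3, 47.2 and 47.1 FPKM against 52.3 and 51.2 FPKM (adjusted p = 0.0320). APH1A missed adjusted p in 7 of 14 alternatives, with each library but si-SCR replicate 3 left out among them (0.0752 to 0.18).

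The coding and untranslated parts of the reference transcripts were searched for the 7 bases that pair with the guide strand of si-circVAMP3. Only the canonical transcript of each gene was searched, so matches in other isoforms were not looked for. Of 11955 genes, 3758 (31.4%) held them in the coding part or the 3′ UTR, and 8.22% of these were called lower and 1.12% higher. Of the 8197 genes without them, 1.77% were called lower and 1.90% higher. The median log2 fold change was -0.12 for 1394 genes with a match in the 3′ UTR, -0.06 for 2364 genes with a match in the coding part alone and 0.05 for the rest. Matches to the opposite strand lay in 6.65% of the genes, with a median of -0.01, against 0.01 for genes without.

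Among the members, 16 of 52 (30.8%) held a match to the guide strand, 6 of them in the 3′ UTR. RYK was among the 16, as were SFRP1 and LRP5, 2 of the 3 other members called lower, and WNT5B was not, where 309 of the 454 genes called lower (68.1%) held a match. By adjusted p alone, 4 of the 15 members with a match other than RYK (26.7%) were lower and none higher, where 25% of all genes with a match were lower and 7.56% higher. Of the 36 members without a match, 3 (8.33%) were lower and 11 (30.6%) higher, where 10.3% of all genes without one were lower and 17.1% higher. VANGL2 had a match in the coding part and in the 3′ UTR, and TLE3 had one in the coding part. Both were lower by adjusted p alone. The other 11 members with a match did not pass the test in either direction. Both depleted libraries lay under every control for WNT5A and LRP6, each with a match in the 3′ UTR. They lay above every control for PTK7, with 2 coding copies. Of all genes tested, 28.6% lay under and 28% above in this way. The groups overlapped for the remaining 8 members with a match (TCF7, GSK3B, AXIN1, DVL1, CSNK1A1, CELSR2, FZD7 and FZD1). Outside the set, CTBP2, MAP3K7, SFRP4 and TNFRSF19 held a match in the 3′ UTR and were called lower. CTNNB1, also called lower, held 1 match in the 5′ UTR, a part not counted above, with 11 of 19 bases in common. The linear VAMP3 mRNA, lower by adjusted p alone, held 2 coding matches in exon 3, of which 1 had 13 of 19 bases in common. That match lies within the 11 bases of exon 3 that the siRNA itself covers, so it was set by the siRNA's design. EPHB3 held 2 coding matches and was called higher, and RSPO2, BAMBI and TBX3, called higher too, held no match. Whether the siRNA acted on any of these mRNAs through the matched bases was not tested. Each count of bases in common includes the 7 bases of the match, which are the same at every site. A few of the matches, chosen after the values of the genes were seen, are shown again as 19 bases of GRCh38 aligned to the listed strand with the match in capitals. They lie in the coding part of LRP5 (chr11:68411504-68411522, exon 11, 11 of 19 bases in common, and chr11:68425209-68425227, exon 15, 12 of 19), in the 3′ UTR of VANGL2 (chr1:160427273-160427291, 9 of 19), and in the 3′ UTRs of CTBP2 (chr10:124988377-124988395, 9 of 19), MAP3K7 (chr6:90516327-90516345, 12 of 19), SFRP4 (chr7:37906362-37906380, 9 of 19) and TNFRSF19 (chr13:23673684-23673702, 12 of 19). The last lies in the coding part of EPHB3, which was higher (chr3:184571347-184571365, exon 2, 11 of 19).
LRP5, exon 11: gcatgacgctgGTGGACAa
LRP5, exon 15: tggccctggtgGTGGACAa
VANGL2, 3′ UTR: tcattgcctttGTGGACAg
CTBP2, 3′ UTR: ttattgtaaagGTGGACAt
MAP3K7, 3′ UTR: cttttctcatgGTGGACAt
SFRP4, 3′ UTR: atttcataattGTGGACAa
TNFRSF19, 3′ UTR: cctatgagattGTGGACAt
EPHB3, exon 2: tctgagttggcGTGGACAt

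**Figure D5:**
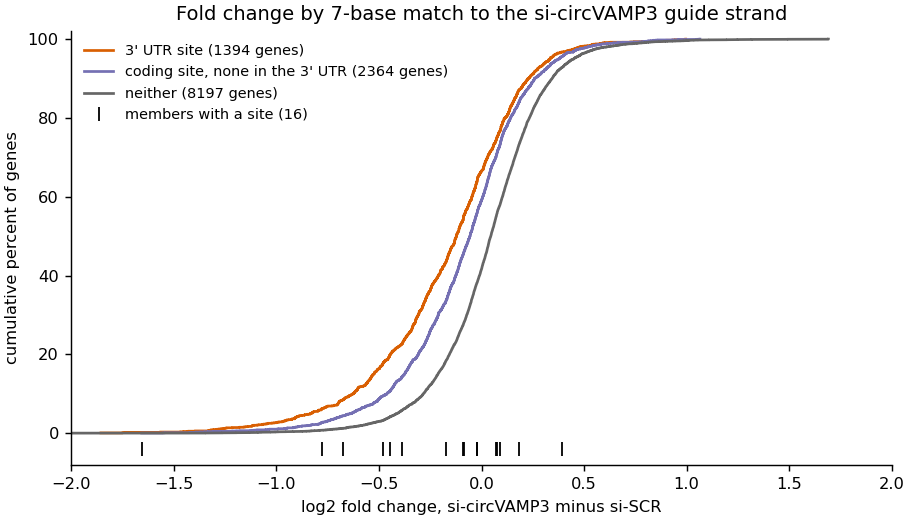
Cumulative percent of genes against log2 fold change, for 1394 genes with a 7-base match to the guide strand in the 3′ UTR, 2364 with a match in the coding part alone and 8197 with neither. Ticks under the curves are the 16 members with a match. The curve of genes with a 3′ UTR match lies to the left of the others, with a median of -0.12 against 0.05 for genes with neither.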

How the data were processed

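FPKM values for 13822 genes in 5 libraries were used as the authors deposited them. The authors trimmed reads with Trimmomatic, aligned them to GRCh38 with STAR 2.5.2b, counted reverse-strand reads per gene with HTSeq, removed genes of low count and computed FPKM with edgeR. Symbols were matched for 13783 gene IDs. Genes with FPKM of at least 0.1 in at least 2 libraries were compared with limma 3.58.1 in R 4.3.3 on log2(FPKM + 0.1), with a mean-variance trend and Benjamini-Hochberg adjustment over 13721 genes across the genome. Fold changes are on that scale, which understates those of low genes. The fit was tested on simulated data. The depth per library and the reads behind single genes were rebuilt from the FPKM values, whose ratios between libraries were ratios of whole numbers for 100% of genes (relative tolerance 3e-13). A common factor was restored for 438 genes. Of the 13822 genes, 613 reached a rebuilt CPM of 1 in fewer than 3 libraries, under the authors' filter as described, so the reads of some genes may still lack a factor, and the depths and the limma-voom fit carry that doubt. Gene lengths rebuilt with the reads equalled the annotated ones for 39 members, WNT11 and NKD1 among them, and for RYK were 0.986 of it. Over the members they ran from 0.456 (GSK3B) to 1.03 of the annotated length, with PORCN at 0.520 and GSK3A at 0.713. Ranks of level between genes, such as that of GSK3A in its group, rest on the lengths behind the FPKM values. Members, gene lists and markers were chosen with earlier results of these data known. Genes were named by a rule: RYK, called members, the most abundant and most changed member of each role, CTNNB1, VAMP3, and called genes of the other lists (up to 6 per direction). Members past adjusted p alone, MIB1, APH1A, MYC, CCND1, genes given for contrast and the comparison with GC content were added after the values were seen. Reference transcripts and positions are from GENCODE 44, the siRNA from the study's oligo list. Alternatives were other pseudocounts, filters, scalings and fits, a replicate block, and leaving out each library.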

Additional observations from a re-analysis of the deposited data

How the results depend on the processing

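A pseudocount of 1 gave 243 genes lower and 91 higher, with 4 members lower and 0 higher by limma, although 11 members were higher both at an unadjusted p under 0.05 and by adjusted p alone. With no fold limit the counts were 1999 and 1754 genes and 8 and 11 members. Leaving out each library in turn gave 424 to 569 genes lower, 132 to 281 higher, 3 to 4 members lower and 1 to 4 higher. The members behind a count can differ: without si-circVAMP3 replicate 2, LRP5 was not among the 4 lower and WNT5A was. A fit left with 1 si-circVAMP3 library assumes that it varies like the controls. The median log2 fold change of the members ranged from 0.02 to 0.05 over its alternatives.

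Neither the labels nor the methods say whether replicates of the same number share a day or culture. Deviations from the group means correlated at -0.0882 for replicates 1 and -0.0166 for replicates 2. These values cannot settle it, because the deviations of only 2 si-circVAMP3 libraries mirror each other. With a replicate block the counts were 545 genes lower and 225 higher, and 4 members lower and 2 higher. The calls of FZD6 (log2 fold change 0.49) and EPHB3 (0.54) were lost in this fit, and DVL2, APH1A and VEGFA missed adjusted p (0.0743, 0.0702 and 0.0514). In it si-SCR replicate 3 has a block of its own, so the fold changes are those without that library.

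Of 584 values under alternatives, for 39 genes (29 of them members), 538 kept their direction and side of the threshold, 22 lost a call, 15 gained one and 9 changed sign, all 9 in genes not called and with a library left out. Over the fits with a library left out, the log2 fold changes of these genes ran from -0.024 to 0.10 (WNT10B), -0.28 to 0.10 (PORCN), -0.046 to 0.15 (LGR5), -0.027 to 0.24 (NKD1) and -0.025 to 0.021 (PYGO2). Their cause was not tested. WNT5B and SFRP1 were called in each of the 14 alternatives that change the fit, and 13 of the 15 gains came with no fold limit. Among the other members and genes of the Wnt and RYK lists, calls with the fold limit were gained by WNT5A and KREMEN1, and by TLE2 (log2 fold change -0.70 without si-SCR replicate 3 and with the replicate block). The limma-voom fit on rebuilt reads, chosen after seeing the data, gave 611 genes lower and 266 higher and 4 and 3 members. Depth limits NKD1 most, with 24 reads in its lowest library.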

Other observations

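Some Wnt genes outside the set moved by adjusted p alone and were noticed after their values were seen. KREMEN1, a receptor for Dickkopf proteins that clears LRP6 from the surface, was at 19.7, 18.7 and 17.4 FPKM under si-SCR and at 14.2 and 12.2 FPKM under si-circVAMP3 (log2 fold change -0.49, adjusted p = 0.00678, but 0.0508 without si-circVAMP3 replicate 2, the highest of all alternatives). Without si-circVAMP3 replicate 1 the log2 fold change of KREMEN1 was -0.60 and it was called lower (adjusted p = 0.0205). TLE4, a corepressor related to TLE3, was higher at 8.71, 8.88 and 8.37 FPKM against 12.6 and 11.7 FPKM (log2 fold change 0.49, adjusted p = 0.00224). SKP1, which joins BTRC in a ubiquitin ligase, was at 17.3, 16.6 and 17.1 FPKM against 21.8 and 22.2 FPKM (log2 fold change 0.37, adjusted p = 0.00238), while BTRC was lower.

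SNAI2, a repressor of epithelial genes, was at 11.0, 12.5 and 11.3 FPKM against 14.2 and 15.4 FPKM (log2 fold change 0.35, adjusted p = 0.0141). Without si-circVAMP3 replicate 1 or 2 its adjusted p was 0.0538 and 0.108, the highest of all alternatives. VEGFA, a growth factor for vessels, was at 1.95, 1.98 and 1.84 FPKM against 2.61 and 2.57 FPKM (log2 fold change 0.41, adjusted p = 0.0138), and its adjusted p without si-circVAMP3 replicate 1 or 2 was 0.0921, the highest of all alternatives, and 0.0830. In each of these 5 genes, named because they passed adjusted p, the groups did not overlap. Of all genes tested, 28.6% lay apart in this way on the lower side and 28% on the higher side.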
